A study of Danio rerio with 6 samples.

Results

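The collagen genes of the larval zebrafish gut are described here in germ-free (GF) larvae. These larvae carried a deletion in the cytokine gene *il26* or were wild-type (WT). Members were all rows of the deposited counts whose symbol starts with col, a type number, the letter a and a chain number, which gave 29 of 15419 rows. Guts of larvae at 5 days post-fertilization (dpf) were dissected, 10 to 15 of them were pooled in each replicate, and mRNA libraries were sequenced from 3 *il26*-/- GF replicates, labelled il26KO, and 3 WT GF replicates. The *il26*-/- line carried a CRISPR/Cas9 deletion across the first exons of *il26*, and the parents of the larvae in both groups were clutchmates housed in different tanks, so that an effect of the line and an effect of the tank cannot be told apart. Both groups had been bleached as eggs and raised in sterile medium with ampicillin, kanamycin, ceftazidime and chloramphenicol. The dissected gut is a mixture of cell types. Fewer cells of a type and less RNA per cell cannot be told apart in such pools.

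Collagens are matrix proteins whose alpha chains wind around each other into a rope-like helix. Fibrillar types (I, II, III, V, XI, XXIV and XXVII) assemble into the fibrils that give connective tissue its tensile strength. Type IV forms the sheet-like network of basement membranes, under the gut epithelium and around muscle cells and vessels, and types XV and XVIII, the multiplexins, sit in the zone beside it. Other types coat fibrils (the FACIT group, for example type IX), form short-chain networks (types VIII and X) or cross the cell membrane (type XVII). In the gut wall, collagen is made mainly by fibroblasts and smooth muscle cells, and basement membrane collagen also by epithelium and endothelium.

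Total counts ranged from 7528412 to 38143258 in *il26*-/- GF libraries and from 21188195 to 29399034 in WT GF libraries. Levels are given as CPM, which are counts relative to the size of the library after scaling by edgeR's TMM method. Replicates were separate pools of guts, so p-values measure only the spread between these pools. Markers of the gut were present in all libraries, with summed levels of 36115 to 37813 CPM in *il26*-/- GF and 33794 to 43306 CPM in WT GF over 8 epithelial genes. Over 8 genes of fibroblasts and mesenchyme they were 119 to 136 CPM in *il26*-/- GF and 118 to 133 CPM in WT GF. Over 5 visceral smooth muscle genes they were 2836 to 3307 CPM in *il26*-/- GF and 2873 to 3624 CPM in WT GF. These ranges overlapped for each of the 3 lists. Summed markers of skeletal muscle did not overlap, with 958 to 1837 CPM in *il26*-/- GF and 480 to 720 CPM in WT GF over 12 genes. Among them *mylpfb* went the other way, with means of 9.26 CPM in *il26*-/- GF and 18.2 CPM in WT GF. The groups overlapped for *ckmb*, and *ckma*, *mylpfa* and *actn3a* had too few counts to be tested. *il26* itself was listed at 0 counts in all 6 libraries, so its counts could not check the genotypes, and libraries are named by their labels.

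Of the 29 members, 18 had enough counts to be tested and 11 did not. Reads of the 29 members made up 0.0730% to 0.101% of all counts in *il26*-/- GF libraries and 0.0801% to 0.104% in WT GF libraries. Most of these reads came from 5 genes, *col1a1b*, *col1a2*, *col5a2a*, *col4a5* and *col18a1a*. They held 91.7% to 93.4% of the counts of the 29 members in *il26*-/- GF and 85.4% to 94.6% in WT GF. Other collagen genes, such as *col4a1*, *col4a2* and *col6a1*, were not analysed here, so these are not shares of all collagen reads. Transcript lengths were not used, so these shares describe reads and not molecules. The levels of one gene are compared between libraries, and levels of different genes are not ranked.

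None of the 18 members passed the test for a difference between *il26*-/- GF and WT GF. At an adjusted p-value under 0.05, edgeR's quasi-likelihood test called 0 members, where it called 0.00904% of the 11062 genes tested. At an unadjusted p-value under 0.05, 3 members were higher in *il26*-/- GF (*col11a1b*, *col10a1a* and *col15a1b*) and 0 were lower, where 5.32% of all genes tested had such a p-value, 3.06% higher and 2.27% lower. With libraries scaled by total counts only, 442 of all genes tested were higher and 108 lower, against 338 and 251 with TMM scaling, and the same 3 members were higher and 0 lower. DESeq2 called 1 member at an adjusted p-value under 0.05, *col10a1a*, where it called 0.47% of all genes, and limma-voom called 0 members, where it called 0.00904%. The median log2 fold change was -0.068 over the 18 members and -0.0011 over all genes tested, with 8 members above 0 and 10 below. CPM of the groups did not overlap for 5 of the 18 members, 4 higher and 1 lower in *il26*-/- GF, where they did not overlap for 9.64% of all genes tested, 4.81% higher and 4.83% lower.

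**Figure D1:**
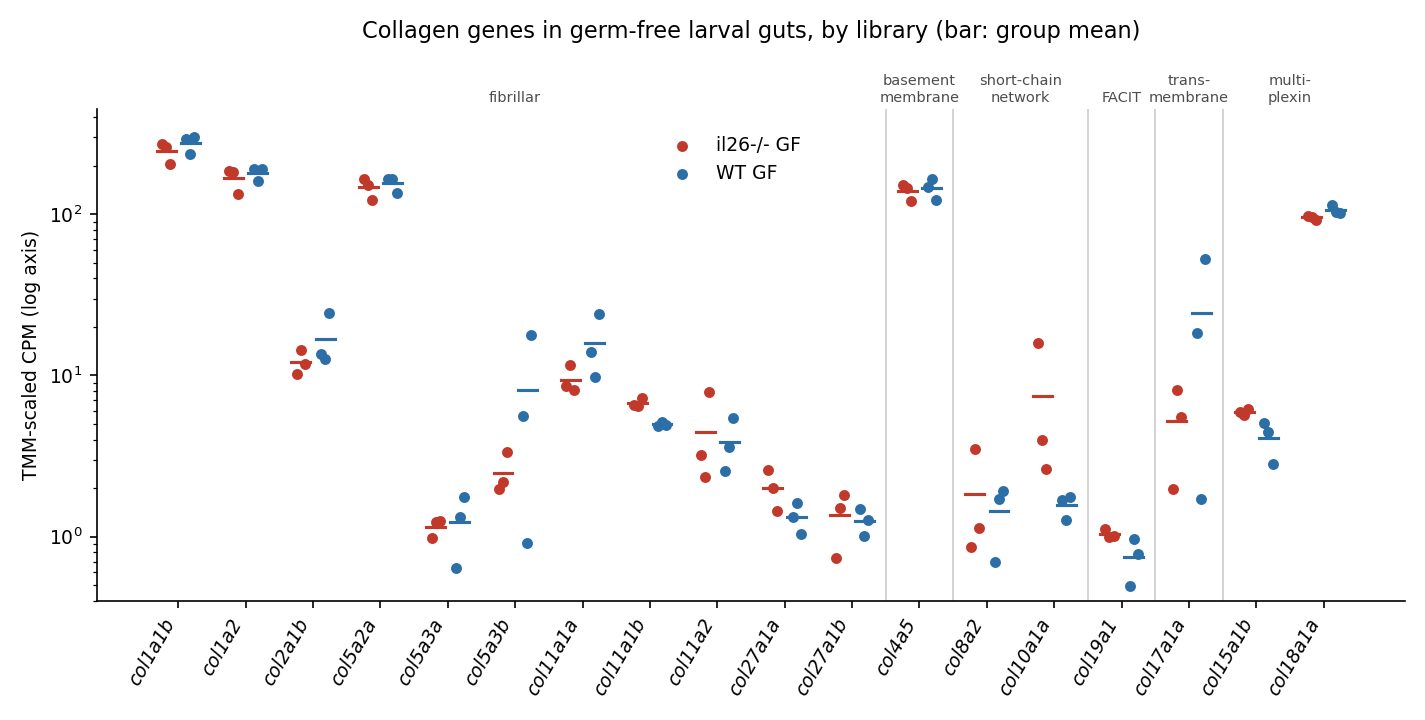
TMM-scaled CPM (log axis) of the 18 collagen genes tested, in 3 *il26*-/- GF libraries (red, left) and 3 WT GF libraries (blue, right), with points for libraries, bars for group means and genes ordered by structural class. The 5 genes with most reads lie above 90 CPM in both groups with a narrow spread, and *col17a1a* and *col5a3b* range widely among WT GF libraries.

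The fibrillar class held 13 members, 11 of them tested. Its summed level was 658, 636 and 505 CPM in *il26*-/- GF replicates 1, 2 and 3, against 693, 599 and 707 CPM in WT GF replicates 1, 2 and 3. The groups overlapped, and the ratio of their means was 0.900. Type I collagen is the main fibril former of connective tissue, and in zebrafish its molecules can hold chains from *col1a1a*, *col1a1b* and *col1a2*. *col1a1b* had 271, 261 and 205 CPM in *il26*-/- GF replicates 1, 2 and 3, against 294, 236 and 301 CPM in WT GF replicates 1, 2 and 3. This gene's log2 fold change was -0.17, with a 95% confidence interval from -0.51 to 0.17 (adjusted p = 1.00, edgeR). *col1a2* had 185, 182 and 134 CPM in *il26*-/- GF and 190, 161 and 190 CPM in WT GF. For this chain edgeR gave -0.11 on the log2 scale, with a 95% interval from -0.45 to 0.23. For both genes *il26*-/- GF replicate 3 was the lowest of the 6 libraries, and the others overlapped.

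The paralog *col1a1a* was listed at 0 counts in 5 libraries and at 1 count in *il26*-/- GF replicate 3, and *col2a1a* and *col8a1a* were listed at 0 counts in all 6. A count of 0 allows up to 0.0765 to 0.369 CPM in *il26*-/- GF libraries and 0.0978 to 0.152 CPM in WT GF libraries, at 3 counts per library, which covers counting error only. *sec13*, a coat protein gene of vesicle export that every cell uses, was also listed at 0 counts in all libraries, and so was the prolyl hydroxylase gene *p4ha1a*. A listing at 0 is therefore not read as absence of the transcript.

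The type I chains varied together. For each read of *col1a1b* there were 0.683, 0.698 and 0.657 reads of *col1a2* in *il26*-/- GF replicates 1, 2 and 3, and 0.648, 0.682 and 0.632 in WT GF replicates 1, 2 and 3. The ratios thus spanned 0.632 to 0.698. Such a ratio does not depend on the total counts of a library or on how libraries are scaled. The groups overlapped.

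Types V and XI form mixed fibrils with types I and II and are known to limit fibril diameter. *col5a2a*, a type V chain, had 167, 152 and 123 CPM in *il26*-/- GF and 165, 166 and 136 CPM in WT GF. The fitted difference was -0.08 on the log2 scale, with a 95% interval from -0.41 to 0.25, and replicate 3 was the lowest library in each group. *col11a1b*, a type XI chain, was the member with the smallest unadjusted p-value. It had 6.52, 6.48 and 7.29 CPM in *il26*-/- GF replicates 1, 2 and 3, against 4.89, 5.11 and 4.92 CPM in WT GF replicates 1, 2 and 3. All 3 *il26*-/- GF libraries were above all 3 WT GF libraries. The log2 fold change was 0.44 (standard error 0.13, unadjusted p = 0.00883 and adjusted p = 0.615 from edgeR), so the difference did not pass the adjustment over all genes. Without any one library the log2 fold change was between 0.39 and 0.48, and the unadjusted p-value was at most 0.0288 in edgeR.

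The paralog *col11a1a* had 8.61, 11.5 and 8.11 CPM in *il26*-/- GF, against 13.97, 9.77 and 24.1 CPM in WT GF. WT GF replicate 3 was the highest library and the groups overlapped. edgeR put the difference at -0.75 on the log2 scale, with a standard error of 0.32 (adjusted p = 0.935), and at -0.31 without WT GF replicate 3. For each read of *col11a1b* there were 1.32, 1.78 and 1.11 reads of *col11a1a* in *il26*-/- GF and 2.86, 1.91 and 4.89 in WT GF. This ratio was lower in every *il26*-/- GF library than in every WT GF library, and it varied most within WT GF. Its denominator, *col11a1b*, also separated the groups. Reads can be split between such paralogs when they are counted, so their counts are uncertain to that degree. The other ratios of counts computed between chain genes overlapped between the groups. The third type XI chain, *col11a2*, overlapped between groups at 2.35 to 7.86 CPM in *il26*-/- GF and 2.57 to 5.45 CPM in WT GF.

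Of the other fibrillar members, *col2a1b* codes for a chain of type II, the collagen of cartilage and notochord sheath. It had 10.2, 14.5 and 11.8 CPM in *il26*-/- GF and 13.5, 12.7 and 24.3 CPM in WT GF (log2 fold change -0.46, standard error 0.27, adjusted p = 1.00, edgeR). Without WT GF replicate 3 the log2 fold change of *col2a1b* was -0.085. The type V chain gene *col5a3b* had 1.97, 2.17 and 3.33 CPM in *il26*-/- GF and 5.63, 0.911 and 17.8 CPM in WT GF. WT GF replicate 2 was the lowest and WT GF replicate 3 the highest of all libraries for this gene, and its log2 fold change was -1.72 with all libraries and -0.39 without WT GF replicate 3. The members *col5a3a*, *col27a1a* and *col27a1b* lay between 0.642 and 2.58 CPM in every library, with overlapping groups.

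**Figure D2:**
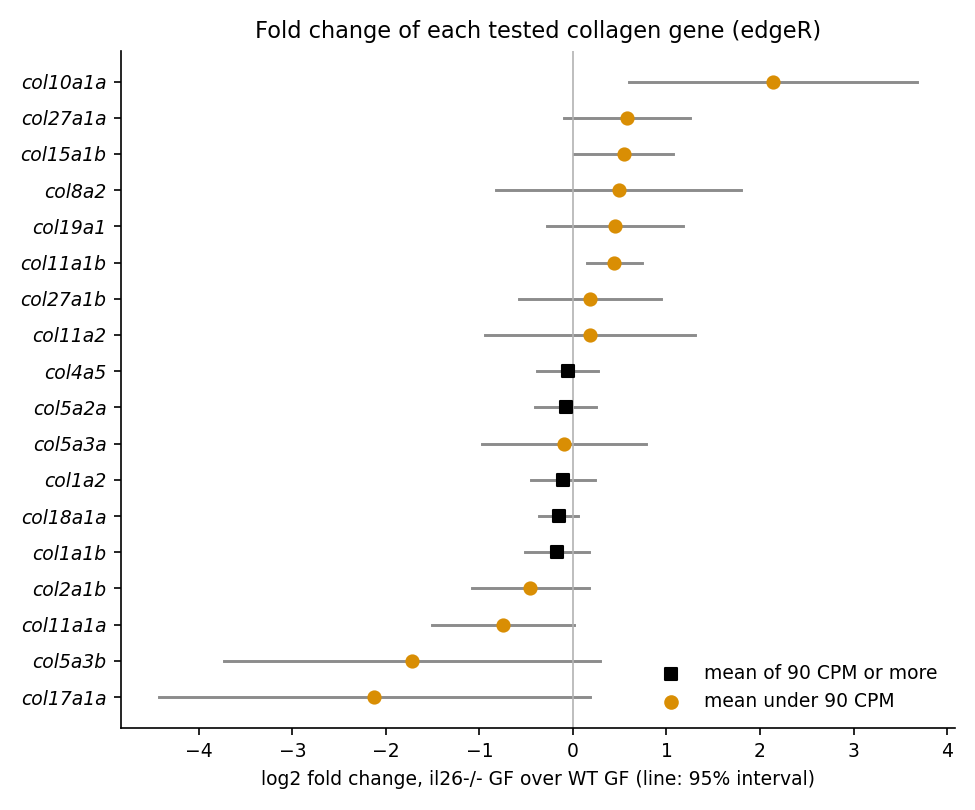
Log2 fold change of each of the 18 collagen genes tested, *il26*-/- GF over WT GF, from edgeR with TMM scaling, with 95% confidence intervals as lines. Squares mark the 5 genes with a mean of 90 CPM or more, whose intervals lie between -0.51 and 0.27, and circles the other 13, of which 10 have intervals that reach beyond 1 or -1.

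Basement membrane collagen was represented by *col4a5*, a type IV chain that in people is mutated in Alport syndrome. Other type IV chain genes, such as *col4a1*, *col4a2* and *col4a6*, were not analysed here. *col4a5* had 152, 146 and 121 CPM in *il26*-/- GF replicates 1, 2 and 3, against 147, 165 and 124 CPM in WT GF replicates 1, 2 and 3. The log2 fold change was -0.06, with a 95% interval from -0.38 to 0.27 (adjusted p = 1.00, edgeR), and replicate 3 was the lowest library in each group. The laminin gamma chain gene *lamc1*, whose product is part of most laminins of basement membranes, had 219 to 233 CPM in *il26*-/- GF and 217 to 251 CPM in WT GF.

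The multiplexin *col18a1a*, whose type of collagen releases the fragment endostatin, varied least of all members tested. It had 98.2, 96.3 and 92.6 CPM in *il26*-/- GF replicates 1, 2 and 3, against 115, 103 and 102 CPM in WT GF replicates 1, 2 and 3. With TMM scaling, every *il26*-/- GF library was below every WT GF library, by a margin smaller than the range within WT GF. The log2 fold change was -0.15 (95% interval -0.37 to 0.06, unadjusted p = 0.130, adjusted p = 1.00, edgeR). Scaled by total counts only, the log2 fold change was -0.06 and the groups overlapped. *il26*-/- GF replicate 1 had 798 of 7528412 counts, a larger share than the 2033 of 21652562 in WT GF replicate 2. *col15a1b*, the other multiplexin, had 5.90, 5.71 and 6.22 CPM in *il26*-/- GF and 5.08, 4.46 and 2.80 CPM in WT GF. The groups did not overlap, and WT GF replicate 3 was the lowest library. The log2 fold change was 0.54 (standard error 0.23, unadjusted p = 0.0469, adjusted p = 0.917, edgeR). Without WT GF replicate 3 it was 0.31, and without any one library other than WT GF replicate 1 the unadjusted p-value was between 0.0578 and 0.107. Type XV collagen is known from the basement membrane zone of skeletal muscle and of vessels. Beside it, 7 of 9 skeletal muscle markers tested were higher in *il26*-/- GF at an unadjusted p-value under 0.05 in edgeR. The share over all genes tested was 3.06%. Of the 9 markers, 8 were highest in *il26*-/- GF replicate 2, as were 1374 of the 11062 genes tested. *col15a1b* was highest in *il26*-/- GF replicate 3 and, within that group, lowest in replicate 2. Of 9 endothelial markers tested, 0 were higher and 0 lower at an unadjusted p-value under 0.05 in edgeR. The part of these tissues in the level of *col15a1b* was not tested.

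**Figure D3:**
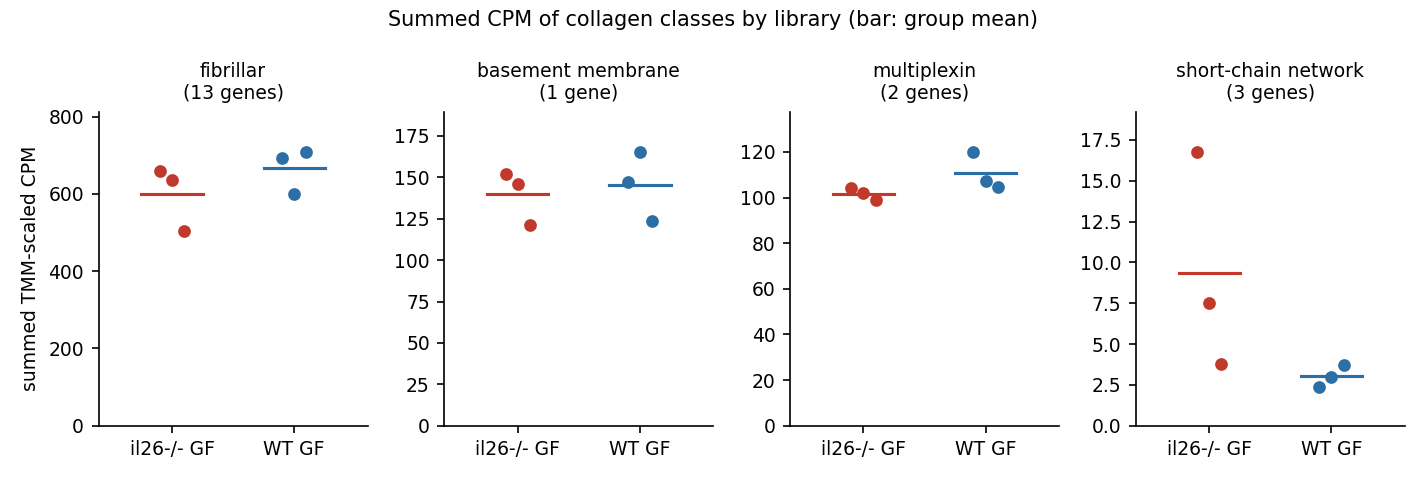
Summed TMM-scaled CPM of the fibrillar, basement membrane, multiplexin and short-chain network classes, in *il26*-/- GF libraries (red, left) and WT GF libraries (blue, right), with points for libraries and bars for group means; each panel has its own axis from 0. The fibrillar and basement membrane sums overlap, and in the short-chain panel *il26*-/- GF replicate 1 stands apart at 16.7 CPM. The multiplexin sums nearly touch, with 98.9 to 104.1 CPM in *il26*-/- GF and 104.6 to 120 CPM in WT GF. Most of that sum is *col18a1a*, which is lower in *il26*-/- GF, while *col15a1b* is higher. The ratio of group means is 0.919, and 0.979 with total counts only, where the multiplexin sums of the groups overlap.

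Among the short-chain collagens, *col10a1a* had the largest positive fold change of the members tested. Type X collagen marks hypertrophic cartilage, and in zebrafish it is also made by bone-forming cells. *col10a1a* had 15.9, 3.98 and 2.64 CPM in *il26*-/- GF replicates 1, 2 and 3, against 1.68, 1.27 and 1.76 CPM in WT GF replicates 1, 2 and 3. All *il26*-/- GF libraries were above all WT GF libraries, and replicate 1 stood far above the others. The counts behind these values were 129, 156 and 42 in *il26*-/- GF and 34, 25 and 54 in WT GF. The log2 fold change was 2.14 (standard error 0.66, unadjusted p = 0.0130, adjusted p = 0.676, edgeR). DESeq2 gave a log2 fold change of 2.23 with an adjusted p-value of 0.0134 and limma-voom 1.67 with an adjusted p-value of 0.617. Without *il26*-/- GF replicate 1 the log2 fold change in edgeR was 1.09 (unadjusted p = 0.00649, adjusted p = 0.953), and over all alternatives the adjusted p-value ranged between 0.0134 and 0.998.

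The summed level of 7 bone markers was 13.4, 12.3 and 9.24 CPM in *il26*-/- GF and 7.70, 5.87 and 6.46 CPM in WT GF, without overlap. This separation was that of a single gene, *phex*, an endopeptidase gene of bone-forming cells, which had 9.59, 8.83 and 7.29 CPM in *il26*-/- GF against 4.93, 3.85 and 3.42 CPM in WT GF (log2 fold change 1.07, standard error 0.18, unadjusted p = 0.000514, adjusted p = 0.336, edgeR). Without *phex* the other 6 markers summed to 3.81, 3.50 and 1.95 CPM in *il26*-/- GF and 2.76, 2.03 and 3.03 CPM in WT GF, with overlapping groups. *sp7*, the transcription factor that defines osteoblasts, had 1.23, 1.51 and 0.754 CPM in *il26*-/- GF and 0.938, 0.405 and 0.717 CPM in WT GF (log2 fold change 0.79, standard error 0.39, unadjusted p = 0.0820, edgeR). *spp1*, which codes for the bone matrix protein osteopontin, had 1.48, 1.20 and 0.754 CPM in *il26*-/- GF and 1.28, 1.27 and 1.402 CPM in WT GF (log2 fold change -0.24). The groups overlapped for both genes. *bglap*, *runx2a*, *runx2b* and *ifitm5* had too few counts to be tested. Markers of cartilage summed to 21.4 to 30.6 CPM in *il26*-/- GF and 21.3 to 22.9 CPM in WT GF over 9 genes. The part of bone or cartilage in the level of *col10a1a* was not tested. The other short-chain member tested, *col8a2*, had 0.861, 3.52 and 1.13 CPM in *il26*-/- GF and 0.691, 1.72 and 1.92 CPM in WT GF, with overlapping groups.

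The widest spread among the members tested was that of *col17a1a*, a transmembrane collagen that anchors basal epidermal cells to their basement membrane through hemidesmosomes. It had 1.97, 8.16 and 5.53 CPM in *il26*-/- GF, against 18.3, 1.72 and 53.2 CPM in WT GF. Its highest library, WT GF replicate 3, was 30.9 times its lowest, WT GF replicate 2. edgeR gave a log2 fold change of -2.12 with a 95% interval from -4.43 to 0.18 (adjusted p = 0.976), and of -0.82 without WT GF replicate 3. Of the 18 members tested, 6 had their highest level in WT GF replicate 3, namely *col1a1b*, *col2a1b*, *col5a3a*, *col5a3b*, *col11a1a* and *col17a1a*. Over all genes tested, 1802 of 11062 were highest in that library. Without WT GF replicate 2, 4 members were lower in *il26*-/- GF at an unadjusted p-value under 0.05, *col11a1a*, *col17a1a*, *col28a1a* and *col5a3b*, each of which was highest in WT GF replicate 3, where 1.67% of all genes tested were lower. Where the filter on low counts was left out, 3 were lower, *col11a1a*, *col17a1a* and *col28a1a*, and 2.22% of all genes were.

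Among 10 markers of epidermis and fin fold, *krtt1c19e*, a keratin gene of basal epidermal cells, had 21.9, 30.5 and 19.2 CPM in *il26*-/- GF and 47.4, 22.6 and 226 CPM in WT GF. In WT GF it thus ranked the libraries as *col17a1a* and *col5a3b* did, with replicate 3 highest and replicate 2 lowest. In *il26*-/- GF the orders differed. There *krtt1c19e* was lowest in replicate 3, *col17a1a* was lowest in replicate 1 and *col5a3b* was highest in replicate 3. Over all libraries, *krtt1c19e* was the 1 of the 8 markers tested that was highest in WT GF replicate 3, while 5 were highest in *il26*-/- GF replicate 2. Of the 11062 genes tested, 1802 and 1374 were highest in these libraries. Within WT GF, *krt4* (769, 688 and 798 CPM) and *evpla* (5.67, 1.67 and 6.16 CPM) had the same order as *krtt1c19e*. *krt91*, *tp63* and *and1* were also lowest in WT GF replicate 2 but highest in replicate 1. Within that group *and2* was lowest in replicate 1 and *ppl* in replicate 3. The list summed to 1799 to 1827 CPM in *il26*-/- GF and 1498 to 2014 CPM in WT GF. Its defining genes *krt5* and *cldni* had 0 counts in *il26*-/- GF libraries and at most 3 counts in a WT GF library. As for *col1a1a* above, counts this low are not read as absence of a transcript. The part of skin in the level of these collagen genes was not tested.

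**Figure D4:**
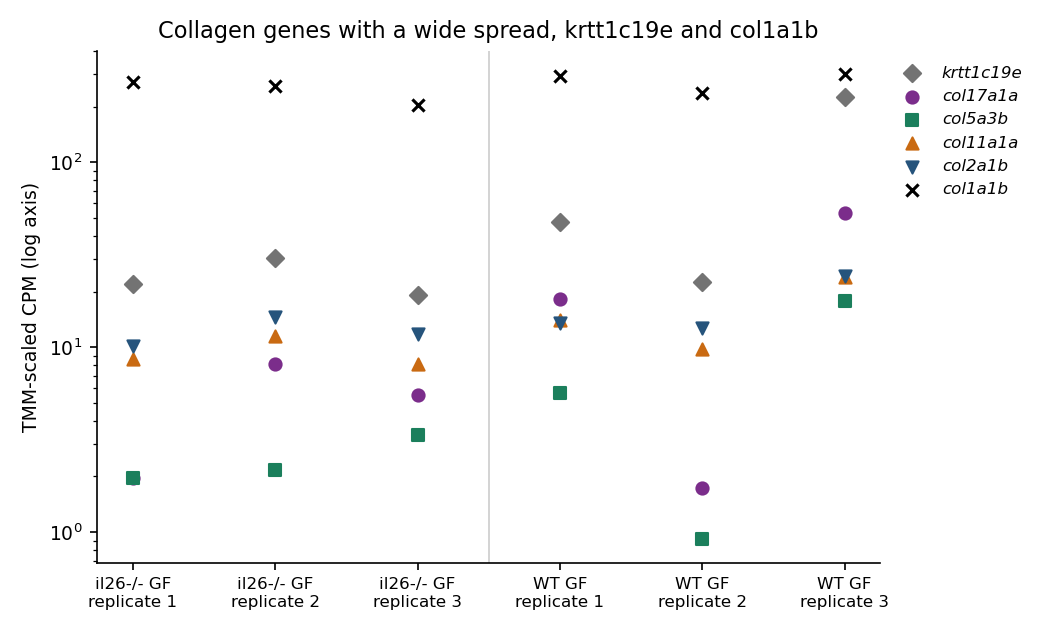
TMM-scaled CPM (log axis) in each of the 6 libraries, *il26*-/- GF left and WT GF right, for *col17a1a*, *col5a3b*, *col11a1a* and *col2a1b*, with the basal keratin *krtt1c19e* and the type I chain *col1a1b* for comparison, all chosen after their values had been seen. The first 4 genes and *krtt1c19e* are highest in WT GF replicate 3, where *col17a1a* reaches 53.2 CPM, and *col1a1b* stays between 205 and 301 CPM.

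The 11 members that were not tested had few reads. Besides *col1a1a*, *col2a1a* and *col8a1a*, they were the FACIT members *col9a1a*, *col9a1b*, *col9a2*, *col9a3* and *col22a1* and the type XXVIII members *col28a1a*, *col28a1b* and *col28a2a*. Type IX collagen coats the type II fibrils of cartilage. The counts of *col9a1a* were 0, 23 and 4 in *il26*-/- GF and 0, 2 and 5 in WT GF. Those of *col9a2* were 0, 26 and 1 in *il26*-/- GF and 2, 2 and 1 in WT GF, and those of *col9a3* were 1, 25 and 4 in *il26*-/- GF and 1, 5 and 1 in WT GF. For each of these 3 genes *il26*-/- GF replicate 2, which was also the most deeply sequenced library, had the highest CPM, between 0.587 and 0.663. *col22a1*, a collagen of muscle to tendon junctions, had 1, 35 and 10 counts in *il26*-/- GF and 1, 0 and 13 counts in WT GF. It was also highest in *il26*-/- GF replicate 2, at 0.893 CPM, and the groups overlapped. *col28a1a* had 0.123, 0.306 and 0.440 CPM in *il26*-/- GF and 0.493, 0.456 and 2.02 CPM in WT GF, without overlap and with 1, 12 and 7 counts in *il26*-/- GF against 10, 9 and 62 counts in WT GF. *col28a2a* had 3, 15 and 3 counts in *il26*-/- GF and 5, 0 and 45 counts in WT GF, with overlapping groups. *col19a1*, the FACIT member that was tested, had 1.11, 0.995 and 1.01 CPM in *il26*-/- GF and 0.493, 0.962 and 0.783 CPM in WT GF (log2 fold change 0.45, standard error 0.31, adjusted p = 1.00, edgeR).

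The members differed in how far their libraries spread. The 5 members with a mean of 90 CPM or more differed between their highest and lowest library by 1.24 to 1.47 times, and their log2 fold changes lay between -0.17 and -0.06. The 3 members between 10 and 90 CPM, *col2a1b*, *col11a1a* and *col17a1a*, differed by 2.38 to 30.9 times, and the 10 members under 10 CPM by 1.49 to 19.5 times.

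Genes whose products make, process, bind or degrade collagen were taken from lists of 177 symbols, of which 100 were among the rows and 85 were tested. Of these 85, 0 passed an adjusted p-value under 0.05 in edgeR's quasi-likelihood test, in DESeq2 or in limma-voom, and 2 were higher and 3 lower in *il26*-/- GF at an unadjusted p-value under 0.05 in edgeR, where 3.06% of all genes tested were higher and 2.27% lower. These shares are near the background, so the counts are no result about the partner genes, and the genes named from them are given as values. Of the 20 tested genes for hydroxylation, folding and export of procollagen, 0 differed at an unadjusted p-value under 0.05, with a median log2 fold change of 0.01. The cyclophilin gene *ppib*, which helps collagen chains to fold, had 578, 550 and 536 CPM in *il26*-/- GF and 524, 610 and 515 CPM in WT GF. *serpinh1a*, which codes for a collagen chaperone, had 45.5, 33.2 and 18.5 CPM in *il26*-/- GF and 34.9, 29.9 and 21.5 CPM in WT GF, lowest in replicate 3 of both groups. Of the 11 tested genes for processing and cross-linking, 0 differed in the same sense.

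Both partner genes that were higher code for laminin chains of basement membranes. The other laminin genes tested were *lama1*, *lama4*, *lama5*, *lamb1a*, *lamb1b*, *lamb4* and *lamc1*. Their log2 fold changes lay between -0.76 (*lamb4*) and 0.09 (*lama1*), with overlapping groups. *lamb2* had 24.97, 26.99 and 18.98 CPM in *il26*-/- GF and 18.4, 15.6 and 12.2 CPM in WT GF (log2 fold change 0.63, standard error 0.19, unadjusted p = 0.0114, adjusted p = 0.660, edgeR). *lama2*, the laminin alpha chain of the muscle cell basement membrane, had 14.1, 21.3 and 17.3 CPM in *il26*-/- GF and 13.7, 11.7 and 10.0 CPM in WT GF (log2 fold change 0.60, standard error 0.18, unadjusted p = 0.0117, adjusted p = 0.665, edgeR). Without *il26*-/- GF replicate 2 the log2 fold change of *lama2* was 0.43, with an unadjusted p-value of 0.0503 from edgeR. The groups did not overlap for either gene, and both were highest in *il26*-/- GF replicate 2, as were 8 of the 9 skeletal muscle markers. Over all genes tested, 1374 of 11062 were highest in that library. Within WT GF, *lamb2* and *lama2* were lowest in replicate 3. The muscle markers *tnnt3a*, *tnni2b.1*, *myhz2*, *casq2* and *mybpc2b* were also lowest there, while *ckmb*, *tnnt3b*, *mylpfb* and *atp2a1* were highest there. The part of skeletal muscle in the levels of these laminin genes was not tested.

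Of the partner genes that were lower, *dpt* codes for dermatopontin, a matrix protein that binds collagen fibrils. It had 6.15, 5.77 and 5.78 CPM in *il26*-/- GF and 7.50, 7.44 and 8.15 CPM in WT GF, without overlap (log2 fold change -0.39, standard error 0.12, unadjusted p = 0.0121, adjusted p = 0.670, edgeR). With libraries scaled by total counts only it was -0.31, with an unadjusted p-value of 0.0869 from edgeR. The proteoglycan gene *vcanb* had 31.7, 40.8 and 23.6 CPM in *il26*-/- GF and 39.4, 57.3 and 154 CPM in WT GF (unadjusted p = 0.0240, edgeR). The matrix metalloproteinase gene *mmp30* had 1.35, 4.26 and 2.95 CPM in *il26*-/- GF and 9.38, 2.99 and 15.2 CPM in WT GF (unadjusted p = 0.0282, edgeR). The groups overlapped for *vcanb* and *mmp30*, and both were highest in WT GF replicate 3. Without that library the log2 fold change was -0.58 for *vcanb* and -0.99 for *mmp30*, and neither had an unadjusted p-value under 0.05. The gelatinase gene *mmp2* had 17.8, 18.98 and 18.2 CPM in *il26*-/- GF and 17.2, 15.8 and 19.6 CPM in WT GF. Of 3 tested collagen receptor genes, *itgb1a*, *itgb1b* and *itga11a*, 0 differed at an unadjusted p-value under 0.05.

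**Figure D5:**
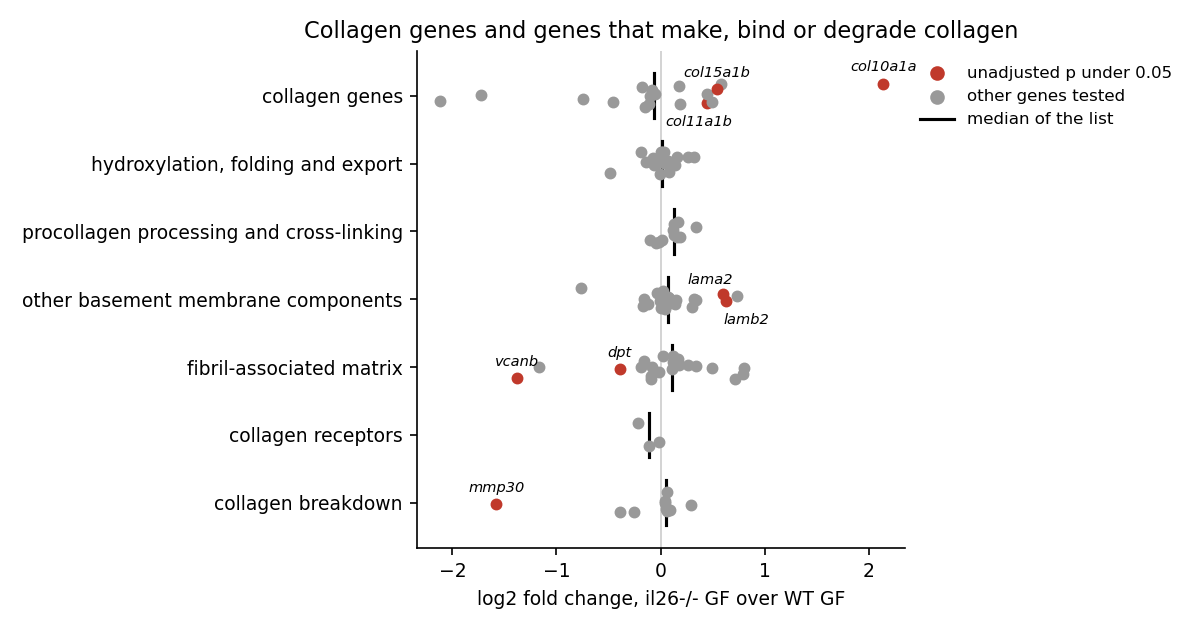
Log2 fold change, *il26*-/- GF over WT GF, of the 18 collagen genes and the 85 partner genes tested, by list, with 1 point for each gene, red points for an unadjusted p-value under 0.05 in edgeR and a black bar for the median of the list. Medians lie between -0.11 for the 3 receptors and 0.13 for processing and cross-linking, and the named genes are those of the text.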

How the data were processed

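The libraries were made from dissected guts of GF larvae at 5 dpf. The authors sequenced stranded mRNA libraries with 100-bp paired-end reads, checked them with FastQC (v0.11.8), aligned them to danRer11 and deposited whole-number counts by gene symbol that were not normalized. The aligner, counting tool, annotation and strand setting are not given in the sources used here, so counts of paralogs and overlapping genes are uncertain. Columns were matched to samples by library name, and 0 columns were left without a sample.

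Genes were kept by edgeR's filterByExpr (11062 of 15419). After TMM scaling, the groups were tested with quasi-likelihood F tests and no replicate block (edgeR 4.0.16, R 4.3.3), and p-values were adjusted by the Benjamini-Hochberg method across every gene in the fit. CPM use the TMM-scaled library size. A standard error is the size of the fold change divided by the square root of F. The fits were tested on simulated data. No pair of libraries within a group agreed within sampling noise (chi-square per degree of freedom of at least 10.6). Alternatives were other scalings and filters, the replicate number as a block, each library left out, DESeq2 1.42.0 and limma-voom with sample quality weights (limma 3.58.1).

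Members and lists were chosen with earlier results of these data known. Values per library were given for members with an unadjusted p-value under 0.05, for those of at least 1 CPM whose groups did not overlap, for chains of types I, IV, XV and XVIII and for the top 2 members by CPM of each class. From partner lists, up to 3 genes per direction with the smallest unadjusted p-value under 0.05 were named. Other genes with values (*col2a1b*, *col5a2a*, *col5a3b*, *col11a1a*, *col11a2*, *col5a3a*, the *col27a1* and type IX genes, and partner genes with no such p-value) were chosen after their values were seen. All 29 members matched a symbol of the RefSeq table of GRCz12tu. That table holds 60 symbols of the same form, the other 31 of which were not analysed here, and places 0 members on the chromosome of *il26*. It is not the build of the counts, so no coordinates are given. Chain ratios are ratios of counts, not per coding length, since protein lengths were not used. No sequences are shown.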

Additional observations from a re-analysis of the deposited data

How the results depend on the processing

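The number of members higher in *il26*-/- GF at an unadjusted p-value under 0.05 was between 2 and 4 in every alternative, and between 2 and 3 without any one library. The number lower was 0 as reported, 3 without the filter on low counts, 1 with DESeq2 and between 0 and 4 without any one library. Over these settings, 2.03% to 5.82% of all genes tested were higher and 0.976% to 4.34% lower. DESeq2 called 1 member at an adjusted p-value under 0.05, *col10a1a* (log2 fold change 2.23), and the other alternatives called 0, with between 0 and 0 without any one library. Of the partner genes, 2 were higher and 3 lower. With total counts only 5 were higher and 2 lower, where 4% and 0.976% of all genes tested were. Without the filter 4 were higher and 3 lower (2.89% and 2.22% of all genes). With limma-voom 6 were higher and 1 lower (4.44% and 3.61%). Without any one library between 1 and 10 were higher and between 1 and 5 lower. Over all genes these shares were 2.03% to 5.82% and 1.64% to 4.34%. The 10 came without *il26*-/- GF replicate 3, where 4.34% of all genes were higher. With the replicate number as a block, 3 members were higher and 0 lower, and 5 partner genes were higher and 2 lower, without *mmp30* (unadjusted p = 0.0672, edgeR). Of all genes tested, 3.79% were higher and 3.34% lower with the block. Deviations from the group means correlated by 0.179, 0.0957 and 0.304 for replicates 1, 2 and 3. Between different numbers the correlations were -0.320 to 0.167, all but the highest below 0. That highest one joined *il26*-/- GF replicate 2 and WT GF replicate 1. Deviations of a gene sum to 0 within a group, so positive values for equal numbers force the others below 0 on balance. The labels do not say what the numbers mark, so the main fit did not pair libraries. The block lowered the standard error from 0.139 to 0.0898 for *col4a5* and from 0.188 to 0.104 for *lamb2* (with the block, unadjusted p = 0.000858 and adjusted p = 0.212, edgeR). Over all genes, 589 passed an unadjusted p-value of 0.05 as reported, 890 did so with limma-voom and 1133 without WT GF replicate 3, and those at an adjusted p-value under 0.05 were 1 as reported, 15 with the block, 52 with DESeq2 and between 0 and 4 in the other alternatives.

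The sign changed for *col4a5* (0.046 with total counts only) and *col5a2a* (0.021 with total counts only), and without single libraries for *col1a2* (-0.19 to 0.032), *col4a5* (-0.16 to 0.051) and *col5a2a* (-0.18 to 0.039). The ratio of summed CPM, *il26*-/- GF over WT GF, was 3.10 for the short-chain class, 3.34 with total counts only and between 1.87 and 4.04 without any one library. Without any one library it was between 0.862 and 0.970 for all members, 0.856 and 0.976 for the fibrillar class, 0.895 and 1.04 for type IV, 1.55 and 2.53 for FACIT, 0.147 and 0.521 for *col17a1a*, 0.895 and 0.966 for the multiplexins, 0.326 and 0.838 for type XXVIII and 0.777 and 0.932 for all members outside the fibrillar and type IV classes. With 3 libraries per group, standard errors on the log2 scale were 0.091 to 0.15 for members of 90 CPM or more, 0.27 to 0.99 for those between 10 and 90 CPM and 0.13 to 0.86 for those under 10 CPM, so moderate differences in many members under 90 CPM were not detectable. The cause of these changes was not tested.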
